A study of Mus musculus with 18 samples.

Results

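Macrophages primed with LPS for 24 h were compared with unstimulated macrophages in 6 of 18 RNA-Seq libraries, made to examine LPS tolerance and carboplatin. The libraries were chosen by their labels. The 3 LPS-primed samples were bone marrow-derived macrophages (BMDMs) given LPS at 100 ng/ml for 24 h without carboplatin, and the 3 unstimulated samples were BMDMs labelled as untreated controls. All BMDMs came from C57BL/6 mice, which the methods give as female, and were grown from bone marrow in medium with L929-conditioned medium, a source of the growth factor M-CSF. The LPS was from Salmonella, and cells without carboplatin received a vehicle for 1 h before it. The labels do not name animals, and the methods call the 3 samples of a group biological replicates. A further group, LPS-stimulated BMDMs, had received a single dose of LPS at 10 ng/ml for 3 h and was set beside the LPS-primed samples for genes already described. Dose and time differ together between these LPS groups and cannot be told apart.

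LPS, a component of the outer membrane of Gram-negative bacteria, is passed by CD14 to the receptor complex of TLR4 and MD-2 on macrophages. The complex signals through MyD88 to NF-kB and MAP kinases, and through TRIF to interferon regulatory factors and type I interferon. Early targets include the inflammatory cytokines, and among the genes induced with them are inhibitors of the same pathway. Macrophages kept in LPS for a day are also known for a shift of metabolism towards glycolysis and for a reduced cytokine response to a second dose, which is called LPS tolerance.

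The 6 libraries held between 8172462 and 9826283 read pairs counted on genes. All 10 macrophage markers passed the expression filter in these libraries, and their summed level was 153746 to 172467 normalized counts in unstimulated and 279250 to 281745 in LPS-primed samples. Lyz2, the lysozyme of macrophages, was the largest part of this sum, at 79681, 69318 and 96726 against 143229, 140483 and 148859. Adgre1, which encodes F4/80, rose (log2FC 1.57), Cd68 fell (log2FC -0.92), and Csf1r and Spi1 did not pass the test. Of 16 B lineage markers, 7 were at 0 in all 6 libraries, among them Ms4a1, Pax5 and Igkc, and the summed level was 2652 to 3457 against 524 to 869 normalized counts. Of 12 neutrophil markers, Ly6g, Mpo, Prtn3, Retnlg and Cxcr2 were at 0 in all 6, and the sum, to which S100a8 given below contributed most in LPS-primed samples, was 13.6 to 15.6 against 84.3 to 438. Stromal markers summed to 0.819 to 8.18 against 40.2 to 81.6, where Dcn and Pdgfrb rose (Pdgfrb not without LPS-primed replicate 1), and mast cell or basophil markers to 11.5 to 52.6 against 2.28 to 4.69. Markers of T or natural killer cells summed to at most 28.7 and those of erythroid cells to at most 5.45. In bulk samples, fewer cells of a type and less RNA per cell cannot be told apart. Saa3 alone took up 4.58 to 5.28% of the reads of LPS-primed samples.

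**Figure D1:**
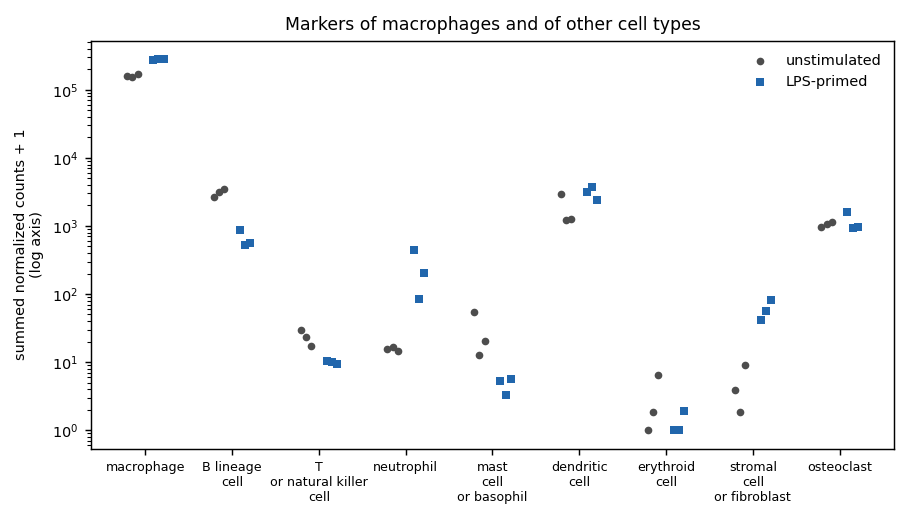
Summed level of each cell type's markers (normalized counts, log axis) in each of the 3 unstimulated and 3 LPS-primed samples. Macrophage markers lie at 153746 or above in all 6 samples, far above the other lists, and the B lineage sum is lower in all 3 LPS-primed samples.

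Of 11305 tested genes, 2132 (18.9%) rose and 2235 (19.8%) fell in LPS-primed BMDMs at an adjusted p under 0.05 (edgeR's quasi-likelihood F test with the replicate number as a block). Without the block, 1370 rose and 1477 fell, and with libraries scaled by size alone, 1321 rose and 3709 fell. Over the tested genes, the median log2FC was -0.02, and -0.26 under that scaling. Genes with an absolute log2FC above 2 as well are called DEGs, and 406 (3.59%) were higher and 481 (4.25%) lower in LPS-primed samples, of which 872 moved alike in 3 of 3 pairs with the same number. The normalized counts of the samples of both groups did not overlap for 39.4% of tested genes. In the following, values per sample are normalized counts of replicates 1, 2 and 3, means are given ± SD with n = 3, and log2FC is that of LPS-primed over unstimulated BMDMs. Where a group had no read, the fold is a lower bound against 3 reads in each library, and with 1 to 3 reads in a group it is a ratio of reads with its exact 95% interval, which covers counting error alone. For each of 31 groups of genes with a shared function, the members are counted against these backgrounds. Members named for their small p had to move alike in 3 of 3 pairs, so that agreement only describes them. The groups held 822 genes, 818 were in the files and 768 were tested, and of these 285 rose, 186 fell and 297 did not pass the test. The other 50 had too few reads to be tested.

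**Figure D2:**
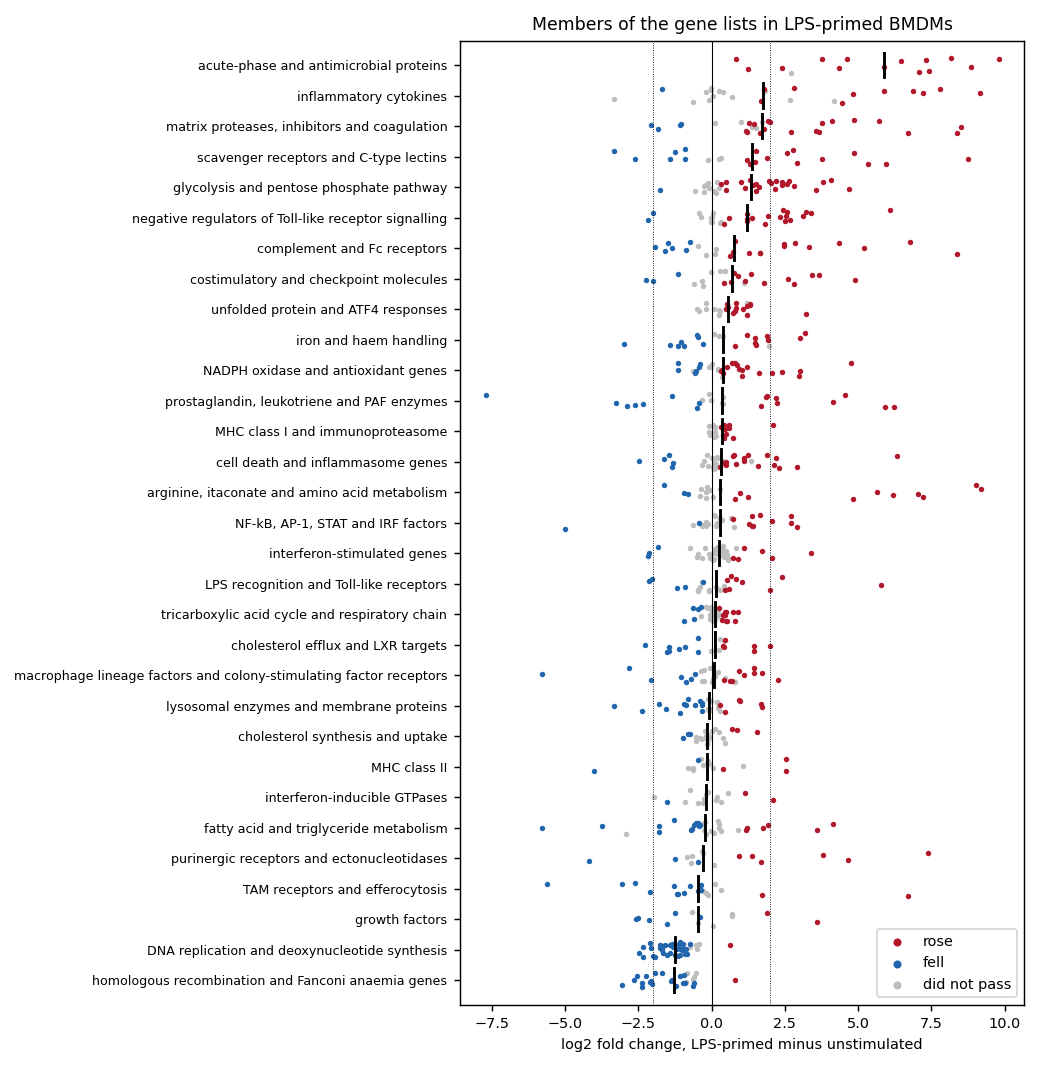
log2FC of LPS-primed over unstimulated BMDMs for each tested member of the 31 gene groups (points) with the median of each group (bars). Acute-phase and antimicrobial proteins have the highest median (5.90) and homologous recombination and Fanconi anaemia genes the lowest (-1.29).

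Among genes with a mean of at least 100 normalized counts in the higher group, those with the largest log2FC in each direction lay partly outside the groups. Ly6c2, a surface marker of inflammatory monocytes, had no read in unstimulated samples and 83, 45 and 173 reads in LPS-primed samples (at least 37.4-fold higher, adjusted p = 1e-07). Stfa3 and Csta2, inhibitors of cysteine proteases from a cluster of near-identical copies, showed the same pattern (at least 40.1-fold higher, adjusted p = 1.3e-08; 1419-fold higher, counting interval 254 to 56074, adjusted p = 4.5e-11), and counts of such copies are uncertain. Cd38, an ectoenzyme that breaks down NAD, was at 0, 0.819 and 5.45 against 1065, 1975 and 1911 normalized counts (log2FC 9.54, SE 0.31, adjusted p = 1.6e-13), so that the groups were far apart. Nrg1, a ligand of ErbB receptors, went from no read to 183, 45 and 85 reads (at least 40.3-fold higher, adjusted p = 3.9e-07). Ak4, a mitochondrial adenylate kinase, was at 0, 1 and 0 reads in unstimulated and 183, 175 and 339 in LPS-primed samples (812-fold higher, counting interval 145 to 32134, adjusted p = 1.3e-10). Among the largest decreases were Nptx1, a pentraxin, with 103, 185 and 55 reads in unstimulated samples and none after priming (at least 31.9-fold lower, adjusted p = 4.9e-07), and Ramp1, a subunit of the receptor for the neuropeptide CGRP (101-fold lower, counting interval 34.2 to 490.5, adjusted p = 6.9e-08). The transporter Slco2b1 (289.6-fold lower, counting interval 79.8 to 2396, adjusted p = 7e-08) and the lysophospholipid receptor Gpr34 (328-fold lower, counting interval 58.5 to 12978, adjusted p = 2.2e-07) also fell. Rasgrp3, an activator of Ras and Rap1, fell from 992 ± 308 to 22.2 ± 11.3 (log2FC -5.55, adjusted p = 6.9e-08), Slc36a2, an amino acid transporter, from 115 ± 40 to 2.05 ± 0.9 (log2FC -5.70, adjusted p = 8.3e-07) and Mamdc2, a proteoglycan, from 735 ± 131 to 14.8 ± 12.5 (log2FC -5.63, adjusted p = 6.2e-10). Ighm, the immunoglobulin heavy chain of B lineage cells, fell from 267, 1150 and 1697 reads to 2, 0 and 1 (891-fold lower, counting interval 304 to 4321, adjusted p = 5.4e-12). It is itself part of the B lineage marker sum given above, and most of the rest of that sum was Blnk, an adaptor of B cell receptor signalling, which fell from 2112 ± 232 to 589 ± 199 (log2FC -1.88, adjusted p = 3.3e-08). The other tested B lineage markers, Cd22 and Cd79b, did not pass. The part of B lineage cells in these values was not tested.

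Inflammatory cytokines were split between members with large increases and members that did not pass. Of 24 tested members, 10 rose (41.7%, against 18.9% of all tested genes), 1 fell and 13 did not pass, and 8 were higher DEGs, with a median log2FC of 1.75, against -0.02 over all tested genes. Of the 11 members with at least 10 counts in all 6 samples, 5 rose and none fell in a fit limited to such genes. Their median log2FC in that fit was 0.70. The others had fewer reads in at least 1 of these samples, so the share and median over the group are a description. Il1b, the pyrogenic cytokine interleukin-1 beta, was at 47.8, 45.1 and 59.1 in unstimulated and 24419, 2439 and 19224 in LPS-primed samples (log2FC 7.80, SE 0.69, adjusted p = 7.2e-08). Il1a stood at 10.5, 2.46 and 8.18 against 1914, 375 and 1047 (log2FC 7.20, SE 0.61, adjusted p = 4.1e-08). The receptor antagonist of both, Il1rn, was at 142, 50.8 and 60.9 against 2839, 1718 and 1041 (log2FC 4.46, SE 0.37, adjusted p = 3.6e-08). For all 3 genes, every LPS-primed sample was above every unstimulated sample. Il6 had no read in unstimulated samples and 116, 6 and 86 reads after priming (at least 26.1-fold higher, adjusted p = 0.00011). Tnf, the early cytokine of the response, was at 131, 75.4 and 61.8 against 285, 353 and 267 (log2FC 1.80, SE 0.26, adjusted p = 2.4e-05), the smallest change among these. Il10, an anti-inflammatory cytokine, was the member that fell, from 28.7, 36.9 and 26.4 to 14.8, 11.4 and 2.81 (log2FC -1.71, SE 0.48, adjusted p = 0.0091). Il12b, the shared subunit of 2 interleukins that act on T cells, had no read in any of the 6 libraries. Csf3, which encodes G-CSF, and Il33, an alarmin, rose from near 0 to 79.4, 5.7 and 15 and 22.2, 0 and 2.81 normalized counts, but unevenly between samples. Neither passed without the replicate block (adjusted p = 0.068 and adjusted p = 0.061), with limma-voom, without unstimulated replicate 1 or without LPS-primed replicate 1, and Il33 was also lost without unstimulated replicate 2 or 3. Tnfsf9, the ligand of 4-1BB, rose from 48.6 ± 28 to 322 ± 60 (log2FC 2.81, adjusted p = 3.8e-06).

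Against the LPS-stimulated samples, 20 of the 24 cytokines were lower in LPS-primed BMDMs and none was higher, where 28.8% of all tested genes were lower and 28.6% higher. At an unadjusted p under 0.05 in edgeR's test, the count of higher members was also 0. The filter on low counts used the 18 samples together, so cytokines with reads mainly in other groups could be among the 24. Of the 24, 3 were at the floor of 3 reads in both unstimulated and LPS-primed samples, and could hardly be higher in the latter. Only 11 had at least 10 counts in every unstimulated and LPS-primed sample. The split of 20 to 0 is thus partly set by the filter and is a description. Tnf was at 14711, 7858 and 5988 normalized counts in LPS-stimulated samples (log2 difference -4.92, adjusted p = 8.3e-11, LPS-primed minus LPS-stimulated). Il10 was at 4408, 5547 and 3620.1 (log2 difference -8.92, adjusted p = 5.5e-12) and Il1b at 63047, 48829.8 and 65005 (log2 difference -2.61, adjusted p = 0.00039). All 3 lay above the LPS-primed samples without overlap, and Il10 differed most.

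The promoter of Il6 is shown because it holds a match to the NF-kB site GGGNNTTTCC, the motif searched on both strands in the 250 bases upstream of each gene's start. Nfkbia, Marco, Cd274 and Ifit3 are shown beside it for the same motif or for GAAANNGAAA, the core of the interferon-stimulated response element, and were chosen after their values were seen. The sequences are from GRCm39, before the start of the gene's canonical transcript in GENCODE vM39. They are printed 5′ to 3′ on the gene's strand, with the matches in capitals. The start of the Il6 match lies 44 bases before the gene's start, that of Nfkbia 29 and that of Marco 30, and those of the element 41 bases before it in Cd274 and 126 and 92 in Ifit3.
Il6, chr5:30217862-30218111 (+): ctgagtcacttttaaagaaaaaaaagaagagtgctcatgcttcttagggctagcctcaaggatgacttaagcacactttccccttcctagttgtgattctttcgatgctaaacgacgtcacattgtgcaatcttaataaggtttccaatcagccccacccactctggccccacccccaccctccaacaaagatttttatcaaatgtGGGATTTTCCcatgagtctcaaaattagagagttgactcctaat
Nfkbia, chr12:55539433-55539682 (-): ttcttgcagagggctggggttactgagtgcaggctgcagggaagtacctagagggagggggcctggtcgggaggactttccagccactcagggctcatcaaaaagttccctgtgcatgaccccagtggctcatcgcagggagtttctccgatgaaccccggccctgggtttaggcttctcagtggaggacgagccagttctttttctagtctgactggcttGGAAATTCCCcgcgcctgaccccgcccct
Marco, chr1:120432754-120433003 (-): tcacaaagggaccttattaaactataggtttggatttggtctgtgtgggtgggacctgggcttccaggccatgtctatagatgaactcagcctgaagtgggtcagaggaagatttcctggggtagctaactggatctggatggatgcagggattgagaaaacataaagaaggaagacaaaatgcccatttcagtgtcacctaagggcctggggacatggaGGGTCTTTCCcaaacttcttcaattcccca
Cd274, chr19:29344279-29344528 (+): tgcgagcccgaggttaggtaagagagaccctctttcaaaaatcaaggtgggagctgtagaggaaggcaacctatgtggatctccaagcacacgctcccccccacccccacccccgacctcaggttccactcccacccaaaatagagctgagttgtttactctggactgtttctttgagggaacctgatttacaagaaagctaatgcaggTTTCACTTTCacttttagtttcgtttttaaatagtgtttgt
Ifit3, chr19:34560649-34560898 (+): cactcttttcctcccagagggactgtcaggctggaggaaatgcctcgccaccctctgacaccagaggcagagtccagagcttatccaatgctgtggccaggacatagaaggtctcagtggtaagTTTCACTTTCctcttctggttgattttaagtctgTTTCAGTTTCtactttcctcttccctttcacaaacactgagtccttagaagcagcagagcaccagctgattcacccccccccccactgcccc
The NF-kB motif was in 1.55% of 19141 such windows, in 4.79% of 397 windows of genes that were higher DEGs and in 1.08% of 464 windows of lower DEGs. It was in 3 of 24 cytokine windows (12.5%) and in none of 15 of the acute-phase group. The interferon motif was in 3.23% of all windows, 4.79% of those of higher and 3.23% of those of lower DEGs, and in 17 of 42 windows of interferon-stimulated genes (40.5%). A match is a description of the letters and not a bound site.

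Acute-phase and antimicrobial proteins had the highest median log2FC of the 31 groups. Of 15 tested members, 14 rose (93.3%, against 18.9% of all tested genes) and none fell (against 19.8%). There were 12 DEGs, and the median was 5.90, or 5.00 with genes that had no read before priming at their lower bound. Only 5 members had at least 10 counts in all 6 samples, and these rose with a median of 2.41 in a fit limited to such genes. The others passed the filter on low counts with fewer reads in at least 1 of the 6 samples, so the share and median over the group are a description. Saa3, a serum amyloid A made by macrophages (chr7:46361422-46365576), was at 1237, 730.1 and 1109.6 against 490871, 426910 and 486846 (log2FC 8.85, SE 0.21, adjusted p = 1.7e-15). Lcn2, the siderophore-binding lipocalin 2, was at 20.1, 13.1 and 3.63 against 4551, 2528 and 3799 (log2FC 8.17, SE 0.28, adjusted p = 3.3e-13), and Slpi, an inhibitor of neutrophil elastase, at 10.5, 3.28 and 4.54 against 1756, 436 and 839 (log2FC 7.31, SE 0.21, adjusted p = 3e-14). In each of these, the groups were far apart. Saa1, a near-identical copy of Saa2 whose counts are therefore uncertain, went from no read to 146, 72 and 108 reads (at least 42-fold higher, adjusted p = 3.3e-10). Hp, which encodes haptoglobin, rose from 10.9 ± 4.84 to 1893 ± 879 (log2FC 7.43, adjusted p = 9.4e-13), Wfdc17, a whey acidic protein family member, from 573 ± 30.7 to 3161 ± 981 (log2FC 2.42, adjusted p = 4.1e-09), and Lyz2 from 81908 ± 13839 to 144190 ± 4269.9 (log2FC 0.83, adjusted p = 1.5e-06). S100a8, a subunit of calprotectin in neutrophils and monocytes, was at 12.4, 11.5 and 6.36 against 433, 80.9 and 201 (log2FC 4.35, SE 0.35, adjusted p = 2e-08). Its LPS-primed samples were spread widely, while the defining neutrophil markers Ly6g and Mpo were at 0. Of the group, 13 members were higher in LPS-primed than in LPS-stimulated samples and 1 was lower, where 28.6% of all tested genes were higher and 28.8% lower. As for the cytokines, the filter on the 18 samples together partly sets this split, which is a description. Lcn2 was at 338, 246 and 367 in LPS-stimulated samples (log2 difference 3.50, adjusted p = 2.2e-10) and Slpi at 26.2, 8.3 and 16.8 (log2 difference 5.83, adjusted p = 1.4e-13).

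**Figure D3:**
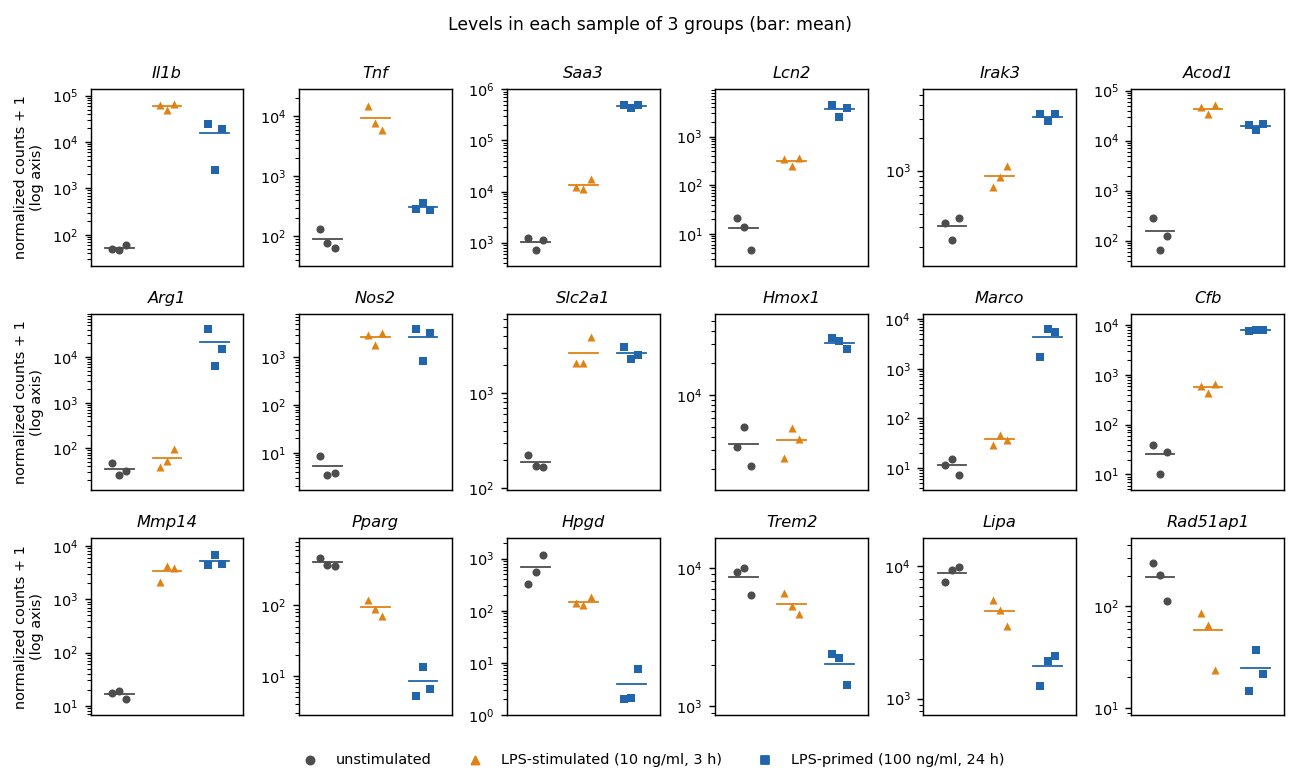
Normalized counts (log axis, 1 added) of 18 genes in each of the 3 unstimulated, 3 LPS-primed and 3 LPS-stimulated samples. Arg1, Lcn2 and Marco are highest in LPS-primed samples, Tnf is highest in LPS-stimulated samples, and Pparg and Hpgd are lowest in LPS-primed samples.

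Among receptors and adaptors of LPS recognition, CD14 and the receptors of bacterial lipoproteins, Tlr1, Tlr2 and Tlr6, rose. Of 23 tested members, 9 rose (39.1%, against 18.9% of all tested genes), 5 fell (21.7%, against 19.8%) and 9 did not pass. With library size alone, 6 rose and 7 fell. Cd14 was at 3850.5, 1961 and 3093 against 27386, 7201 and 16925 (log2FC 2.40, SE 0.20, adjusted p = 2.6e-08), and Tlr2, the receptor of lipoproteins, at 1221, 1020.2 and 1798 against 5883, 4457 and 5974 (log2FC 2.01, SE 0.22, adjusted p = 1.2e-06). Tlr4 itself was at 935, 881 and 1437 against 894, 1112 and 1599.9 and did not pass (log2FC 0.14, SE 0.17, adjusted p = 0.56). Aoah, acyloxyacyl hydrolase, which removes fatty acids from LPS and inactivates it, was at 96.5, 82.8 and 57.2 against 3664, 4985 and 4409 (log2FC 5.78, SE 0.18, adjusted p = 4.7e-14), and at only 210, 207 and 224 in LPS-stimulated samples (log2 difference 4.34, adjusted p = 9.5e-13). Cd180 and Ly86, the RP105 and MD-1 proteins that form a TLR4-like complex, fell from 4354 ± 859.7 to 1059 ± 338 (log2FC -2.13, adjusted p = 9.8e-05) and from 726 ± 7.23 to 333 ± 108 (log2FC -1.19, adjusted p = 3e-05). The endosomal receptors Tlr7 and Tlr9, which bind RNA and DNA, also fell (log2FC -0.91, adjusted p = 0.0055; log2FC -2.04, adjusted p = 0.00014), and Tlr3, Tlr8 and Tlr13 did not pass.

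Inhibitors of the pathway rose for the most part. Of 29 tested negative regulators, 18 rose (62.1%, against 18.9% of all tested genes), 2 fell (6.9%, against 19.8%) and 9 did not pass. Among them, 10 were higher DEGs. Socs3, an inhibitor of JAK and STAT signalling, was at 34.4, 32 and 38.2 against 2819.6, 2343 and 1968 (log2FC 6.09, SE 0.37, adjusted p = 4.2e-10). Irak3, the IRAK-M protein that holds back signalling from MyD88 (chr10:119975568-120038035), was at 327, 227 and 362 against 3286, 2849.6 and 3301 (log2FC 3.38, SE 0.15, adjusted p = 7e-12). Nfkbia, the inhibitor of NF-kB with the site printed above, was at 591, 498 and 413 against 2869, 2602 and 2584 (log2FC 2.43, SE 0.13, adjusted p = 8.5e-11). Tnfaip3, the ubiquitin-editing enzyme A20, was at 108, 132 and 138 against 676, 852 and 917 (log2FC 2.69, SE 0.12, adjusted p = 1.4e-11). All 4 were higher in every LPS-primed sample. Dusp1, a phosphatase of MAP kinases, and Socs1 rose as well (log2FC 3.13, adjusted p = 1.5e-09; log2FC 3.21, adjusted p = 0.00027). Nlrc3 and Sigirr, which also restrain the pathway, were the members that fell, from 47.1 ± 15 to 10.6 ± 1.54 (log2FC -2.19, adjusted p = 0.0039) and from 51.7 ± 24 to 11.8 ± 3.88 (log2FC -2.02, adjusted p = 0.0059), and Sigirr did not pass without LPS-primed replicate 1. Compared with LPS-stimulated samples, 21 members were lower and 5 higher in LPS-primed samples, where 28.8% of all tested genes were lower and 28.6% higher. Irak3 was among the higher ones, at 712, 875 and 1096 in LPS-stimulated samples (log2 difference 1.82, adjusted p = 6.1e-09), while Tnfaip3 was lower (log2 difference -4.33, adjusted p = 4.7e-14).

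**Figure D4:**
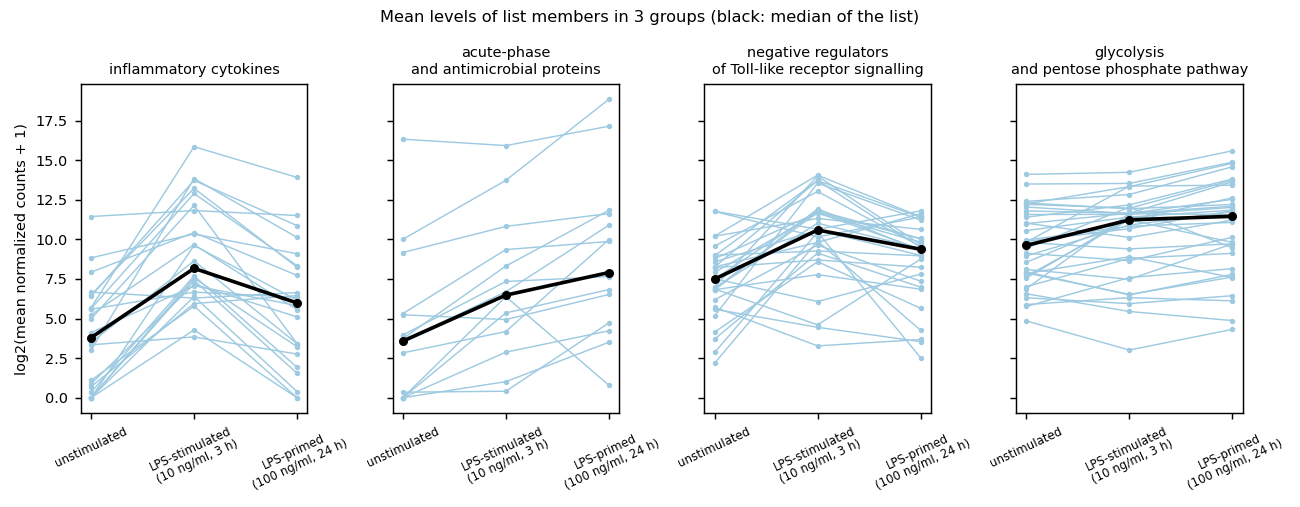
Mean normalized counts (log axis) of members of 4 gene groups in unstimulated, LPS-primed and LPS-stimulated BMDMs (n = 3 each). The highest mean is in LPS-stimulated samples for 22 of 24 cytokines and 22 of 29 negative regulators, and in LPS-primed samples for 14 of 15 acute-phase and 22 of 34 glycolysis genes.

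Of 29 tested NF-kB, AP-1, STAT and IRF factors, 10 rose, 2 fell and 17 did not pass (10 rose and 6 fell with library size alone). The shares that rose and fell were 34.5% and 6.9%, against 18.9% and 19.8% of all tested genes. Nfkb2, the precursor of the non-canonical subunit p52, rose from 743 ± 53.5 to 1993 ± 149 (log2FC 1.42, adjusted p = 4.2e-08), the AP-1 subunit Junb from 1062 ± 104 to 2777 ± 141 (log2FC 1.39, adjusted p = 2.1e-08) and Irf7, the factor that amplifies type I interferon, from 4559, 1098 and 1179.5 to 8693, 10349 and 5542 (log2FC 2.07, SE 0.32, adjusted p = 4.6e-05). Irf4, known from plasma cells and alternatively activated macrophages, fell from 9, 20 and 20 reads to 1, 0 and 0 (42-fold lower, counting interval 7.2 to 1694, adjusted p = 0.00078), and Irf5 fell less (log2FC -0.45, adjusted p = 0.004). Irf1 was at 558, 524 and 564 against 351, 695 and 512 (log2FC -0.11, SE 0.19, adjusted p = 0.68). It did not pass, and the samples of both groups overlapped.

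Most interferon-stimulated genes did not pass. Of 43 tested, 6 rose (14%, against 18.9% of all tested genes), 3 fell (6.98%, against 19.8%) and 34 did not pass. The median log2FC was 0.24, or -0.00 with library size alone. Without the block, 3 rose and 1 fell. The counts turned on single libraries, with 20 that rose and 1 that fell without unstimulated replicate 1, 5 and 7 without unstimulated replicate 2, 1 that fell without LPS-primed replicate 1, and 3 that rose without LPS-primed replicate 2. Ifit3, whose promoter is printed above, was at 3067, 661 and 1225 against 241, 829 and 286 (log2FC -2.14, SE 0.58, adjusted p = 0.0066). The copy Ifit3b was at 334, 82.8 and 189 against 22.2, 71.8 and 46.9 (log2FC -2.18, SE 0.56, adjusted p = 0.0048) and Ifit2 at 1276, 474 and 971 against 84.7, 718 and 332 (log2FC -1.85, SE 0.58, adjusted p = 0.017). These antiviral RNA-binding proteins were highest in unstimulated replicate 1, and counts shared between the Ifit copies are uncertain. Ifit3 and Ifit2 did not pass without the block (adjusted p = 0.051 and adjusted p = 0.26), nor without unstimulated replicate 1, without LPS-primed replicate 1 or in a fit of the 6 samples, and Ifit2 was also lost with limma-voom. Over the 43 genes, 37 were higher in unstimulated replicate 1 than in the other unstimulated samples. This was not confined to the group. It also held for 12 of 15 interferon-inducible GTPases, 19 of 20 MHC class I genes and 35 of 39 DNA replication genes. Ifit1 (1299.7, 286 and 666 against 366, 860.2 and 549.6, adjusted p = 0.37) and Isg15, a ubiquitin-like modifier (927, 194 and 286 against 479, 827 and 629, adjusted p = 0.32), did not pass, but Ifit1 fell without unstimulated replicate 2 and Isg15 rose without unstimulated replicate 1. Ifi205, of the IFI200 family of DNA-binding proteins, rose from 95.6, 36.1 and 37.3 to 412, 1058 and 491 (log2FC 3.38, SE 0.40, adjusted p = 2.3e-06).

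Interferon-inducible GTPases, which attack the vacuoles of intracellular pathogens, showed 2 members that rose, 1 that fell and 12 of 15 that did not pass. The shares that rose and fell were 13.3% and 6.67%, against 18.9% and 19.8% of all tested genes. Gbp6 rose from 99.1 ± 71.9 to 413 ± 123 (log2FC 2.08, adjusted p = 0.00043) and Gbp7 from 73.5 ± 21.2 to 167 ± 76.5 (log2FC 1.12, adjusted p = 0.00073), while Gbp9 fell from 451 ± 101 to 168 ± 41 (log2FC -1.51, adjusted p = 0.00035). Gbp2 was at 953, 344 and 539 against 605, 982 and 731 (log2FC 0.33, SE 0.28, adjusted p = 0.38) and did not pass, although it did without unstimulated replicate 1. Without that sample 4 members rose, and without unstimulated replicate 2 there were 6 that fell, as against 2 without LPS-primed replicate 2 and 4 with library size alone. Reads shared between the Gbp copies make single values uncertain.

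**Figure D5:**
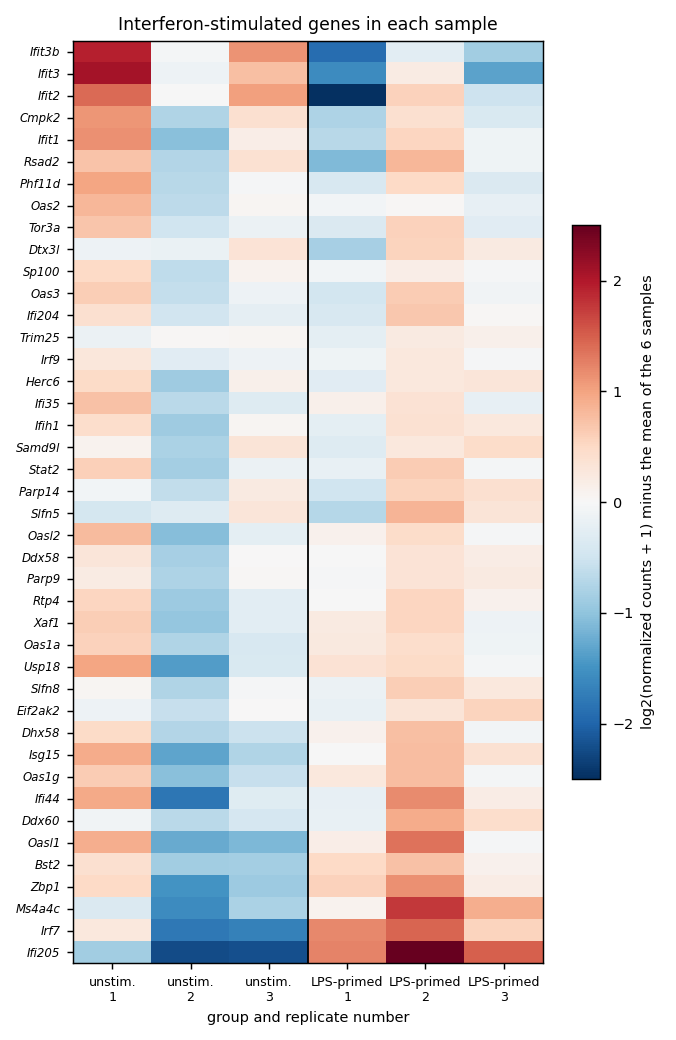
Normalized counts of 42 of the 43 tested interferon-stimulated genes in each of the 6 samples, as log2 distance from the gene's mean over the samples. Unstimulated replicate 1 is above the other unstimulated samples for 36 of these genes, and Ifi205 and Irf7 are higher in all 3 LPS-primed samples.

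In the MHC class I group, 10 of 20 rose (50%, against 18.9% of all tested genes) and none fell (against 19.8%). The median log2FC was 0.35. Unstimulated replicate 1 was the highest of the unstimulated samples for 19 of the 20 genes. Fewer passed without the block (3), with library size alone (3, and 1 fell), without unstimulated replicate 2 (6) and without LPS-primed replicate 2 (3). B2m, the shared light chain, was at 27022, 21754 and 24271 against 35009.7, 41088 and 35057 (log2FC 0.60, SE 0.13, adjusted p = 0.0011). H2-K1, a class I heavy chain, was at 18059.7, 16966 and 15306 against 21215, 25858 and 18244 (log2FC 0.37, SE 0.11, adjusted p = 0.013), and did not pass without the block (adjusted p = 0.072), with library size alone or without LPS-primed replicate 2. H2-Q7 rose from 54.4 ± 17 to 224 ± 60.2 (log2FC 2.10, adjusted p = 1.1e-05), with reads that can be shared between heavy chain copies. In the class II group, 3 rose (20%, against 18.9% of all tested genes), 2 fell (13.3%, against 19.8%) and 10 did not pass. With library size alone, 2 rose and 4 fell. Ciita, the master regulator of class II genes, fell from 15, 18 and 30 reads to 0, 2 and 1 (18-fold lower, counting interval 5.89 to 89.7, adjusted p = 0.00065). H2-Ab1, a class II beta chain, was at 101, 191 and 152 against 1588, 569 and 860 (log2FC 2.55, SE 0.38, adjusted p = 3.8e-05), while its partner H2-Aa was at 50.7, 97.5 and 61.8 against 56.1, 49 and 30 (log2FC -0.65, SE 0.38, adjusted p = 0.20) and did not pass. Cd74, the invariant chain, was at 276, 519.5 and 478 against 510.1, 487 and 315 (adjusted p = 0.94). Marchf1, a ubiquitin ligase that removes class II and CD86 from the surface, rose from 135 ± 77.5 to 722 ± 217 (log2FC 2.53, adjusted p = 4.7e-08), and the thiol reductase Ifi30 fell (log2FC -0.47, adjusted p = 0.0062).

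Costimulatory and checkpoint molecules comprised 12 that rose (54.5%, against 18.9% of all tested genes) and 3 that fell (13.6%, against 19.8%). A further 7 did not pass, and 10 rose and 6 fell with library size alone. Without unstimulated replicate 1, 5 fell. Cd274, the inhibitory ligand PD-L1 with the interferon motif printed above, was at 104, 166 and 84.5 against 1244, 1216 and 1267 (log2FC 3.41, SE 0.20, adjusted p = 3e-10). Cd86 was at 13.4, 17.2 and 20 against 222, 54.7 and 75 (log2FC 2.61, SE 0.39, adjusted p = 3.8e-05), and Pilra, an inhibitory receptor, at 60.2, 59 and 31.8 against 1841, 1224 and 1499 (log2FC 4.88, SE 0.22, adjusted p = 1.4e-11). All 3 were higher in every LPS-primed sample. Cd40 rose from 48.1 ± 11.6 to 81.9 ± 6.81 (log2FC 0.76, adjusted p = 0.02), a call that was lost with library size alone and when any of unstimulated replicate 3 or LPS-primed replicates 2 and 3 was left out. Cd83, a marker of activated dendritic cells, fell from 88.5 ± 7.06 to 19.9 ± 9.72 (log2FC -2.23, adjusted p = 7.4e-05) and Icosl, the ligand of ICOS, from 145 ± 9.37 to 35.9 ± 9.02 (log2FC -2.01, adjusted p = 1.1e-05). Both were at higher levels in LPS-stimulated samples, Cd83 at 2446, 1656 and 1320.1 (log2 difference -6.52, adjusted p = 6.4e-11) and Icosl at 963, 867 and 689 (log2 difference -4.54, adjusted p = 3.1e-10).

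Genes that make and use arginine and itaconate held several of the largest changes. Of 21 tested members 10 rose (47.6%, against 18.9% of all tested genes) and 3 fell (14.3%, against 19.8%). There were 7 higher DEGs, and 9 rose and 7 fell with library size alone. Nos2, the inducible nitric oxide synthase (chr11:78811613-78851080), was at 7.65, 2.46 and 2.73 against 3891, 835 and 3173 (log2FC 9.18, SE 0.48, adjusted p = 8.2e-11). Arg1, which competes for the same arginine and makes ornithine (chr10:24791118-24803817), was at 45.9, 24.6 and 30.9 against 41962, 6441 and 15116 (log2FC 9.04, SE 0.46, adjusted p = 5.9e-11). Both genes thus rose in the same 3 samples. In LPS-stimulated samples Nos2 was at 2906, 1831 and 3282 (log2 difference -0.35, adjusted p = 0.29) and Arg1 at 38.2, 50.5 and 95.6 (log2 difference 7.98, adjusted p = 9.9e-11), so that Arg1 differed between the LPS groups and Nos2 did not pass. Acod1, which makes itaconate from cis-aconitate, was at 285, 64.7 and 123 against 20463, 16384 and 21572 (log2FC 7.04, SE 0.30, adjusted p = 6e-12) and at 46051, 33612 and 51809 in LPS-stimulated samples. Ass1, which recycles citrulline to arginine, rose from 96 ± 101 to 2519 ± 1346 (log2FC 4.84, adjusted p = 2e-09), the arginine transporter Slc7a2 from 22.6 ± 1.19 to 1147 ± 337 (log2FC 5.64, adjusted p = 2.2e-08), the cystine transporter Slc7a11 from 4.23 ± 1.57 to 331 ± 164 (log2FC 6.20, adjusted p = 2e-07) and mitochondrial Arg2 from 3.14 ± 3.36 to 453 ± 109 (log2FC 7.22, adjusted p = 3e-10). The polyamine enzymes Sat1 and Sms fell (log2FC -0.93, adjusted p = 0.0013; log2FC -0.80, adjusted p = 0.0016).

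Glycolysis rose along most of the pathway. Of 34 tested members, 23 rose (67.6%, against 18.9% of all tested genes), 1 fell (2.94%, against 19.8%) and 10 did not pass. There were 12 DEGs, the median log2FC was 1.35, and 20 rose and 4 fell with library size alone. The glucose transporter Slc2a1 was at 226, 169.6 and 166 against 3030.2, 2283 and 2539 (log2FC 3.80, SE 0.20, adjusted p = 1.1e-10). Hk2, which traps glucose in the cell, was at 162, 207 and 241 against 798, 866 and 1015 (log2FC 2.15, SE 0.17, adjusted p = 1.8e-08), and Pfkfb3, which makes the activator of phosphofructokinase, at 84.1, 166 and 101 against 2757, 3144 and 3131 (log2FC 4.70, SE 0.27, adjusted p = 2.1e-10). Further down, Pgk1 rose from 2031 ± 563 to 12631 ± 412 (log2FC 2.64, adjusted p = 1.6e-10) and Eno1 from 5383 ± 1700.5 to 24486 ± 3989 (log2FC 2.20, adjusted p = 1.2e-09). Lactate dehydrogenase Ldha was at 6603, 3866 and 4044 against 32445, 26081 and 26893 (log2FC 2.58, SE 0.14, adjusted p = 8.5e-11), and the lactate exporter Slc16a3 at 507, 334 and 281 against 7104, 5551 and 6179 (log2FC 4.07, SE 0.23, adjusted p = 1.5e-10). Gapdh rose (log2FC 2.02, adjusted p = 0.0018), but at only 128, 104 and 154 against 702, 619 and 337 normalized counts. These values are uncertain, as reads can be shared with its many pseudogene copies, which was not tested. Hif1a, the factor that drives many of these genes, was at 779.8, 883 and 1051 against 8872, 9303 and 14649.5 (log2FC 3.57, SE 0.16, adjusted p = 1e-11). The exception was the glucose transporter Slc2a3, which fell from 93.4 ± 21 to 28.3 ± 13.7 (log2FC -1.76, adjusted p = 0.00075). In the oxidative pentose phosphate branch, Pgd rose (log2FC 0.48, adjusted p = 0.00076, but not with library size alone) and G6pdx did not pass (log2FC 0.18, adjusted p = 0.16). Compared with LPS-stimulated samples, 21 members were higher in LPS-primed samples and 3 lower, where 28.6% of all tested genes were higher and 28.8% lower.

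Tricarboxylic acid cycle and respiratory chain genes changed by small amounts and in both directions. Of 41 tested, 11 rose (26.8%, against 18.9% of all tested genes), 5 fell (12.2%, against 19.8%) and none was a DEG. With library size alone, 5 rose and 10 fell. The malate dehydrogenases moved apart, with cytosolic Mdh1 at 2667, 2344 and 2504 against 1396, 1148 and 1395 (log2FC -0.93, SE 0.12, adjusted p = 7.1e-06) and mitochondrial Mdh2 at 1694, 1077 and 1136 against 2866, 1947 and 1952 (log2FC 0.80, SE 0.09, adjusted p = 1.6e-06). Idh3g, a subunit of isocitrate dehydrogenase, fell (log2FC -0.61, adjusted p = 0.00043), as did Fh1, fumarase (log2FC -0.48, adjusted p = 0.0078), although Fh1 was lost without LPS-primed replicate 1. Cox5a (log2FC 0.72, adjusted p = 3.3e-05), Atp5b (log2FC 0.50, adjusted p = 0.00027) and citrate synthase Cs (log2FC 0.40, adjusted p = 0.0035) rose, although Cs did not with library size alone.

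Of 24 cholesterol synthesis members, 3 rose (12.5%, against 18.9% of all tested genes) and 3 fell (12.5%, against 19.8%). The median log2FC was -0.15, and 2 rose and 6 fell with library size alone. Without the block 1 rose and 1 fell, and leaving out single libraries gave 2 to 5 that rose and 1 to 5 that fell. Scap, the escort of the SREBP factors, fell from 616 ± 41 to 372 ± 35.9 (log2FC -0.73, adjusted p = 0.00039). Hsd17b7 rose and Dhcr7 fell (log2FC 1.55, adjusted p = 0.0004; log2FC -0.98, adjusted p = 0.031), but neither passed without the block (adjusted p = 0.11 and adjusted p = 0.068), and Dhcr7 was lost without any of unstimulated replicates 1 and 3 and LPS-primed replicates 1 and 3.

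Cholesterol efflux genes and targets of the nuclear receptor LXR split, with 6 of 18 that rose and 8 that fell. As shares these were 33.3% and 44.4%, against 18.9% and 19.8% of all tested genes. Only 3 rose without the block or without unstimulated replicate 1, and 2 rose and 9 fell with library size alone. Abca1, the exporter to lipid-poor apolipoprotein, was at 377, 2076 and 1429 against 3172, 5515 and 5249 (log2FC 1.98, SE 0.29, adjusted p = 2.4e-05). Abcg1, the exporter to HDL, was at 1360, 1417 and 1455 against 482, 481 and 506 (log2FC -1.53, SE 0.13, adjusted p = 5.9e-08), so that the transporters moved in opposite directions in every pair. Nr1h3, which encodes LXR alpha, rose from 239 ± 47.6 to 665 ± 225 (log2FC 1.45, adjusted p = 0.00015). Apoe fell from 30603, 113722 and 61364 to 12434, 52944 and 16405 (log2FC -1.44, SE 0.20, adjusted p = 1.2e-05, but adjusted p = 0.21 without the block). Cyp27a1, which makes 27-hydroxycholesterol, fell from 718 ± 192 to 147 ± 23 (log2FC -2.27, adjusted p = 1.3e-08).

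Among fatty acid and triglyceride genes, 6 of 30 rose and 12 fell (6 without the block). The shares that rose and fell were 20% and 40%, against 18.9% and 19.8% of all tested genes. Pparg, a nuclear receptor of fatty acids that promotes lipid uptake and alternative activation (chr6:115337675-115468268), was at 474, 374 and 365 against 4.23, 12.5 and 5.63 (log2FC -5.78, SE 0.41, adjusted p = 4.1e-09). Lpl, lipoprotein lipase, was at 5257, 7712 and 7282 against 418, 573 and 515 (log2FC -3.74, SE 0.28, adjusted p = 9.3e-09). Cd36, a fatty acid and oxidised LDL receptor, was higher after priming, at 4519, 4268 and 2307 against 10863, 6548 and 8166 (log2FC 1.22, SE 0.22, adjusted p = 0.00024). The acyl-CoA synthetases Acsl1 and Acsl4 rose (log2FC 3.60, adjusted p = 4e-11; log2FC 1.93, adjusted p = 1.9e-09), and fatty acid synthase Fasn fell (log2FC -1.27, adjusted p = 0.0006). The genes of mitochondrial beta-oxidation Hadha, Hadhb and Acadm were among those that fell, each with an absolute log2FC below 1.

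Enzymes of prostaglandin and leukotriene synthesis changed in both directions. Of 23 tested, 9 rose (39.1%, against 18.9% of all tested genes) and 8 fell (34.8%, against 19.8%), and 6 and 5 were DEGs. The inducible cyclooxygenase Ptgs2 was at 9.56, 5.74 and 9.09 against 586, 179 and 831 (log2FC 5.91, SE 0.65, adjusted p = 1.1e-06), and Ptges, which makes prostaglandin E2, at 25.8, 9.01 and 1.82 against 1101, 819 and 776 (log2FC 6.23, SE 0.46, adjusted p = 7.3e-09). Hpgd, which degrades prostaglandin E2 (chr8:56747543-56774082), was at 328, 544 and 1191 against 1.06, 1.14 and 6.56 (log2FC -7.71, SE 0.42, adjusted p = 1.2e-10). Ptgs2 and Ptges were thus higher and Hpgd lower in all 3 LPS-primed samples. The constitutive cyclooxygenase Ptgs1 fell from 201 ± 69.1 to 20.9 ± 3.89 (log2FC -3.28, adjusted p = 3.9e-06), the prostaglandin D2 synthase Hpgds from 1003 ± 111 to 170 ± 63.1 (log2FC -2.63, adjusted p = 1.6e-07) and 5-lipoxygenase Alox5 from 349 ± 146 to 73.6 ± 42.3 (log2FC -2.34, adjusted p = 7.3e-07). The leukotriene B4 receptor Ltb4r1 rose from 2.15 ± 1.53 to 51.4 ± 15.1 (log2FC 4.56, adjusted p = 6.2e-07). Pla2g7, which degrades platelet-activating factor, rose from 991 ± 129 to 17259 ± 756 (log2FC 4.13, adjusted p = 3.6e-15), as did Lpcat2, which makes it (log2FC 1.90, adjusted p = 1e-10). Ptgs2 was much higher in LPS-stimulated samples, at 9279, 17084 and 15500 (log2 difference -5.12, adjusted p = 8.7e-08), while Ptges was at 709, 1124 and 1817 (log2 difference -0.50, adjusted p = 0.18).

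Iron and haem genes comprised 9 of 21 that rose (42.9%, against 18.9% of all tested genes) and 8 that fell (38.1%, against 19.8%). Only 4 fell without the block. Slc40a1, the iron exporter ferroportin, was at 68.8, 216 and 112 against 21.2, 9.11 and 16.9 (log2FC -2.99, SE 0.42, adjusted p = 1.8e-05). The storage protein Fth1 was at 156234, 121175 and 121983 against 547285, 478251 and 492295 (log2FC 1.93, SE 0.10, adjusted p = 6.6e-11), and Hmox1, which frees iron from haem (chr8:75820241-75827217), at 3237, 4966 and 2141 against 34107, 31966 and 26866 (log2FC 3.20, SE 0.23, adjusted p = 4.3e-09). The exporter was thus lower while storage and haem breakdown were higher in every LPS-primed sample. Ncoa4, the receptor that takes ferritin to the lysosome, fell from 1972 ± 559.7 to 733 ± 158 (log2FC -1.41, adjusted p = 9e-07), and Slc11a1, the phagosomal metal transporter NRAMP1, rose from 2274 ± 395 to 5240.2 ± 616 (log2FC 1.20, adjusted p = 1e-05). Tfrc, the transferrin receptor, rose (log2FC 0.81, adjusted p = 0.011), but not without the block (adjusted p = 0.22), with library size alone or without unstimulated replicate 3. Ftl1, the ferritin light chain with several processed copies in the genome, was lower (log2FC -0.30, adjusted p = 0.022), a call lost without the block (adjusted p = 0.32), in a fit of the 6 samples or without unstimulated replicate 2 or LPS-primed replicates 1 or 3. In LPS-stimulated samples Hmox1 was at 2539.8, 4818 and 3853 (log2 difference 3.06, adjusted p = 5e-09).

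Of 30 NADPH oxidase and antioxidant genes, 17 rose (56.7%, against 18.9% of all tested genes) and 6 fell (20%, against 19.8%). Cybb, the catalytic subunit of the phagocyte oxidase, was at 2196, 4179 and 4831 against 10241, 14734 and 21693 (log2FC 2.07, SE 0.15, adjusted p = 7.1e-09). Sod2, the mitochondrial superoxide dismutase, was at 530.4, 501 and 493 against 15759.6, 13199.6 and 12584 (log2FC 4.76, SE 0.17, adjusted p = 5.9e-13), while cytosolic Sod1 was at 3838, 4328 and 3804 against 2334, 1562 and 1668 (log2FC -1.14, SE 0.13, adjusted p = 1.9e-06). The dismutases of mitochondria and cytosol moved apart in every pair. Prdx5, a peroxiredoxin, rose from 1777 ± 177 to 14280.3 ± 2701 (log2FC 2.98, adjusted p = 5.6e-11), glutathione reductase Gsr from 388 ± 51.3 to 2059.6 ± 58.1 (log2FC 2.41, adjusted p = 1.3e-10), and Gstm1, a glutathione transferase, fell from 1941 ± 105 to 902 ± 298 (log2FC -1.16, adjusted p = 1.1e-05).

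Scavenger receptors and C-type lectins changed strongly, 13 of 22 upward (59.1%, against 18.9% of all tested genes) and 6 downward (27.3%, against 19.8%). Marco, a scavenger receptor for bacteria with the NF-kB motif printed above, was at 10.5, 13.9 and 6.36 against 1716, 6183 and 5463 (log2FC 8.75, SE 0.37, adjusted p = 5.4e-12). Clec4e, the receptor Mincle for mycobacterial glycolipid, was at 377, 183 and 224 against 14398, 14728 and 20534 (log2FC 5.97, SE 0.26, adjusted p = 6.4e-12), and Clec4n, Dectin-2, at 30.6, 37.7 and 20 against 2734, 439 and 1284 (log2FC 5.34, SE 0.47, adjusted p = 6e-08). Clec7a, the beta-glucan receptor Dectin-1, was at 176, 369.6 and 737 against 43.4, 38.7 and 35.6 (log2FC -3.33, SE 0.36, adjusted p = 8.1e-07). Among these lectins of the same family, Mincle and Dectin-2 were thus higher and Dectin-1 lower in all LPS-primed samples. Msr1, scavenger receptor A, rose from 711 ± 249 to 9649.7 ± 818 (log2FC 3.78, adjusted p = 2.1e-10) and Colec12 fell from 1492 ± 295 to 559 ± 43.6 (log2FC -1.41, adjusted p = 1.8e-07). Mrc1, the mannose receptor, fell from 1904, 3659 and 1567 to 1085, 1565 and 475 (log2FC -1.27, SE 0.25, adjusted p = 0.00061, but adjusted p = 0.20 without the block). In LPS-stimulated samples Marco was at 28.6, 45.7 and 35.5 (log2 difference 6.92, adjusted p = 2e-11) and Clec4e at 16835, 19137 and 21089.

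Genes of the uptake of dead cells mostly fell. Of 19 tested, 12 fell (63.2%, against 19.8% of all tested genes) and 2 rose, with a median log2FC of -0.46. The receptor tyrosine kinase Axl was at 1519.5, 1341 and 1516 against 174, 262 and 278 (log2FC -2.63, SE 0.14, adjusted p = 1.1e-10), and Gas6, its ligand, at 6298, 5107 and 4300.1 against 518, 950.2 and 456 (log2FC -3.06, SE 0.23, adjusted p = 9.3e-09). Trem2, a lipid-sensing receptor, was at 9351, 9943 and 6387 against 2389.9, 2221 and 1426 (log2FC -2.10, SE 0.12, adjusted p = 3.6e-10), and Itgb3, an integrin subunit that binds bridging proteins, at 68.8, 80.3 and 70 against 2.12, 0 and 1.88 (log2FC -5.62, SE 0.66, adjusted p = 4.8e-06). Receptors and ligand were lower in every LPS-primed sample. Mertk, the main receptor of the family in resting macrophages, had an adjusted p close to the threshold (609 ± 297 to 438 ± 183; log2FC -0.46, SE 0.18, adjusted p = 0.049), and did not pass without the block (adjusted p = 0.43), with RLE size factors, with no filter on low counts or when any of the 6 samples was left out. The members that rose were Xkr8, a scramblase (log2FC 1.73, adjusted p = 0.0028), and Thbs1, thrombospondin 1, at 177, 165 and 178 against 44858, 10016 and 15285 (log2FC 6.71, SE 0.41, adjusted p = 4.8e-10).

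Complement and Fc receptor genes rose in 14 of 24 cases (58.3%, against 18.9% of all tested genes) and fell in 6 (25%, against 19.8%). Among them, 8 were higher DEGs. Cfb, factor B of the alternative pathway (chr17:35074852-35081559), was at 37.3, 9.01 and 27.3 against 7499.8, 7944 and 8132 (log2FC 8.37, SE 0.25, adjusted p = 4.4e-14). C3, the central component, was at 1364, 483 and 485 against 14542, 13388 and 17053 (log2FC 4.34, SE 0.27, adjusted p = 6.3e-10), and C1s1, a protease of the classical pathway, at 1.91, 4.1 and 5.45 against 437, 219 and 735 (log2FC 6.79, SE 0.26, adjusted p = 1.1e-12). Cfp, properdin, rose from 1745 ± 843 to 12049 ± 3146 (log2FC 2.84, adjusted p = 5e-09), and the inhibitor Cd55 from 5.41 ± 2.51 to 222 ± 201 (log2FC 5.19, adjusted p = 2.7e-06). The recognition subunit C1qa did not pass (2204 ± 804 against 2636 ± 1652, adjusted p = 0.73). Fc receptors Fcgr1 and Fcgr4 rose (log2FC 1.67, adjusted p = 1.6e-07; log2FC 1.64, adjusted p = 1.4e-05), as did Itgam, the alpha chain of complement receptor 3 (log2FC 2.48, adjusted p = 1e-10), while Itgax, that of complement receptor 4, fell (log2FC -1.48, adjusted p = 8.8e-05). Fcgrt, the neonatal Fc receptor, fell from 1018 ± 378 to 337 ± 117 (log2FC -1.58, adjusted p = 1.8e-06). Cfb was at 601, 437 and 657 in LPS-stimulated samples (log2 difference 3.82, adjusted p = 4.1e-11).

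Of 31 lysosomal genes, 13 fell (41.9%, against 19.8% of all tested genes) and 6 rose (19.4%, against 18.9%). With library size alone, 4 rose and 18 fell. Lipa, lysosomal acid lipase, was at 7591, 9408 and 9776 against 1247, 1913 and 2104 (log2FC -2.37, SE 0.23, adjusted p = 2.2e-07), and Atp6v0d2, a subunit of the proton pump, at 525, 789 and 506 against 64.6, 91.1 and 34.7 (log2FC -3.35, SE 0.28, adjusted p = 4e-08). The cathepsins Ctsl and Ctsc rose from 15592 ± 5258 to 50598 ± 18787 (log2FC 1.69, adjusted p = 3e-10) and from 1192 ± 8.16 to 4089.9 ± 1095 (log2FC 1.74, adjusted p = 4.3e-08). Ctsk, the collagen-degrading cathepsin of osteoclasts, did not pass (362 ± 173 against 396 ± 110.2, adjusted p = 0.49), but rose without unstimulated replicate 3.

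Proteases and inhibitors of the matrix and of coagulation rose in 18 of 27 cases (66.7%, against 18.9% of all tested genes). There were 4 that fell (14.8%, against 19.8%), and the median log2FC was 1.73. Of the 17 members with at least 10 counts in all 6 samples, 12 rose and 4 fell in a fit limited to such genes. Their median in that fit was 1.43. The others had fewer reads in at least 1 of these samples, so the share and median over the group are a description. Mmp14, a membrane-bound collagenase, was at 16.2, 18 and 12.7 against 4435, 6857 and 4587 (log2FC 8.39, SE 0.20, adjusted p = 1.7e-15). Serpinb2, plasminogen activator inhibitor 2, was at 10.5, 2.46 and 6.36 against 4068, 1125 and 2170.1 (log2FC 8.51, SE 0.47, adjusted p = 1.5e-10), and Timp1 at 17.2, 4.92 and 2.73 against 1882, 423 and 370.4 (log2FC 6.72, SE 0.47, adjusted p = 3.1e-09). Proteases and their inhibitors thus rose in the same samples. Mmp9 rose from 6.11 ± 5.58 to 328 ± 221 (log2FC 5.70, adjusted p = 4.6e-07), Mmp8 from 47 ± 15.5 to 809 ± 749 (log2FC 3.57, adjusted p = 0.00042) and F10, coagulation factor X, from 33.9 ± 12.4 to 976 ± 25.2 (log2FC 4.85, adjusted p = 5.4e-12). Spp1, osteopontin, fell from 53079, 12335 and 30049 to 11338, 3575 and 6522 (log2FC -2.08, SE 0.19, adjusted p = 8.9e-08), and Timp2 fell (log2FC -1.03, adjusted p = 5.4e-06). F3, tissue factor, had 1, 3 and 1 reads against 8, 2 and 3 and did not pass, though it did without unstimulated replicate 2. The stromal marker sum given above was also higher in LPS-primed samples, and its part in this group was not tested.

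Among lineage factors and receptors of colony-stimulating factors, 9 of 28 rose and 7 fell (4 without unstimulated replicate 2). The shares that rose and fell were 32.1% and 25%, against 18.9% and 19.8% of all tested genes. Cebpa and Cebpb, factors of myeloid differentiation and of the inflammatory response, moved in opposite directions, with Cebpa at 528, 1177 and 785 against 155, 238 and 188 (log2FC -2.07, SE 0.24, adjusted p = 2.1e-06) and Cebpb at 1572, 1484 and 1220.4 against 8883, 6162 and 6268 (log2FC 2.28, SE 0.23, adjusted p = 3.5e-07). Csf1r, the receptor of M-CSF, did not pass (23023 ± 2802 against 24481 ± 1353, adjusted p = 0.56). Csf3r, that of G-CSF, rose from 501 ± 154 to 1653 ± 412 (log2FC 1.73, adjusted p = 9.3e-09). Maf fell (log2FC -0.72, adjusted p = 0.023), but not without the block (adjusted p = 0.22) or without unstimulated replicate 2 or LPS-primed replicate 3, and Myc did not pass (adjusted p = 0.34).

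Of 13 growth factors, 6 fell (46.2%, against 19.8% of all tested genes) and 2 rose (15.4%, against 18.9%). Igf1 was at 2205, 2262 and 2559 against 777, 817 and 847 (log2FC -1.52, SE 0.18, adjusted p = 2.1e-06) and Pdgfb at 149, 294 and 154 against 38.1, 47.9 and 48.8 (log2FC -2.13, SE 0.24, adjusted p = 1.5e-06). Vegfa, the angiogenic factor, was at 313, 293 and 386 against 1577, 744 and 1548 (log2FC 1.88, SE 0.21, adjusted p = 1.3e-06). It was thus higher in each LPS-primed sample, while the mitogens Igf1 and Pdgfb were lower. Igfbp4, a binding protein of IGF, fell from 1683 ± 277 to 280.1 ± 75.9 (log2FC -2.60, adjusted p = 6e-11) and Bmp1, a protease of procollagen, rose from 1.14 ± 1.24 to 15.2 ± 7.03 (log2FC 3.60, adjusted p = 0.00084).

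Of 15 purinergic genes, 6 rose (40%, against 18.9% of all tested genes) and 3 fell (20%, against 19.8%). Only 9 had at least 10 counts in all 6 samples, and 2 rose and 2 fell in a fit limited to such genes. The others had fewer reads in at least 1 of these samples, so the shares over the group are a description. With library size alone, 5 rose and 4 fell. The adenosine receptors Adora2a and Adora2b rose from 1.24 ± 1.08 to 32.7 ± 13.5 (log2FC 4.64, adjusted p = 5.2e-06) and from 13 ± 5.79 to 185 ± 59.7 (log2FC 3.80, adjusted p = 7.2e-07). Nt5e, the CD73 enzyme that makes adenosine from AMP, went from no read to 53, 4 and 12 reads (at least 8.93-fold higher, adjusted p = 0.00019), and Entpd1, CD39, which removes phosphate from ATP and ADP, fell from 921 ± 399 to 393 ± 122 (log2FC -1.24, adjusted p = 0.0013). Of the ATP receptors, P2rx4 rose (log2FC 0.92, adjusted p = 4.2e-06), the ADP receptor P2ry1 fell from 66.9, 54.1 and 149.9 to 4.23, 4.56 and 5.63 (log2FC -4.18, SE 0.65, adjusted p = 5.6e-05), and P2rx7 did not pass (adjusted p = 0.31).

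Cell death and inflammasome genes rose in 17 of 38 cases (44.7%, against 18.9% of all tested genes) and fell in 5 (13.2%, against 19.8%). There were 12 that rose and 6 that fell with library size alone. Nlrp3, the sensor of the inflammasome, was at 596, 509 and 519 against 2553, 2087 and 2454 (log2FC 2.13, SE 0.12, adjusted p = 2.5e-10), and Nlrp1b, another sensor, at 705, 796 and 731 against 319, 352 and 234 (log2FC -1.32, SE 0.14, adjusted p = 6.2e-07). Survival factors were among the genes that rose, Birc3 from 488 ± 107 to 2250.4 ± 256 (log2FC 2.21, adjusted p = 7.9e-11) and Bcl2a1a, 1 of several near-identical copies, from 0.865 ± 0.823 to 84.8 ± 46.7 (94.8-fold higher, counting interval 32.1 to 463, adjusted p = 4.9e-08). So were the death receptor Fas (log2FC 2.90, adjusted p = 5.2e-10) and Mlkl, the effector of necroptosis (log2FC 1.11, adjusted p = 1.5e-06). The BH3-only genes Bmf, Bbc3, Pmaip1 and Bcl2l11 fell, Bbc3 from 133 ± 38.8 to 43.2 ± 1.88 (log2FC -1.62, adjusted p = 0.00028). Casp4, the cytosolic LPS sensor caspase-11, rose (log2FC 0.72, adjusted p = 0.012), but not without the block (adjusted p = 0.083), with library size alone or without unstimulated replicate 2 or LPS-primed replicate 3.

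Chaperones of the endoplasmic reticulum rose in part, 13 of 23 unfolded protein and ATF4 genes with none that fell (11 rose and 4 fell with library size alone, and 1 fell without unstimulated replicate 1). The share that rose was 56.5%, against 18.9% of all tested genes, of which 19.8% fell. Calr, calreticulin, rose from 9192 ± 2354 to 20858 ± 1375 (log2FC 1.19, adjusted p = 6e-06), Hspa5, BiP, from 8791 ± 2107 to 14649.7 ± 1431 (log2FC 0.73, adjusted p = 0.0021) and Hyou1 from 667 ± 126 to 1542 ± 92.8 (log2FC 1.21, adjusted p = 3.7e-05). Ddit4, an inhibitor of mTORC1, was at 9.56, 13.1 and 18.2 against 218, 75.2 and 125 (log2FC 3.22, SE 0.35, adjusted p = 8.5e-07).

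DNA replication genes fell almost throughout, 34 of 39 (87.2%, against 19.8% of all tested genes), with a median log2FC of -1.27. Only 1 rose (2.56%, against 18.9%). Fewer fell without LPS-primed replicate 1 (20) or unstimulated replicate 1 (24), or without the block (24). For 35 of the 39 genes, unstimulated replicate 1 was the highest of the unstimulated samples. Mcm5, of the replicative helicase, was at 877, 561 and 269.9 against 138, 268 and 116 (log2FC -1.66, SE 0.32, adjusted p = 0.00042). Mcm10, which is needed for that helicase to unwind DNA, was at 331, 277 and 168 against 37, 84.3 and 23.4 (log2FC -2.47, SE 0.32, adjusted p = 8.7e-06), and Rrm2, of ribonucleotide reductase, at 727, 521 and 274 against 60.3, 209 and 108 (log2FC -1.94, SE 0.50, adjusted p = 0.0047). Every LPS-primed sample was below every unstimulated sample for these genes. Pcna, the sliding clamp, fell less (log2FC -0.91, adjusted p = 0.0015), and E2f8, a repressor of cell cycle genes, fell from 319.7 ± 76.6 to 66.4 ± 48.3 (log2FC -2.35, adjusted p = 9.7e-06). The member that rose was E2f1 (259 ± 49.8 to 397 ± 21.9; log2FC 0.62, adjusted p = 0.0011).

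Homologous recombination and Fanconi anaemia genes, which repair double-strand breaks and crosslinks in DNA, fell in 20 of 26 cases and rose in 1, with 9 lower DEGs. As shares, 76.9% fell and 3.85% rose, against 19.8% and 18.9% of all tested genes. Rad51ap1, a DNA-binding protein of homologous recombination, was at 269, 204 and 113 against 13.8, 36.5 and 20.6 (log2FC -3.07, SE 0.53, adjusted p = 0.00015), and Fanci, which marks crosslinks together with FANCD2, at 170.1, 202 and 93.6 against 11.6, 34.2 and 28.1 (log2FC -2.56, SE 0.41, adjusted p = 8e-05). Brca1 fell from 214 ± 61.5 to 89.2 ± 18.3 (log2FC -1.23, adjusted p = 0.0045). The member that rose, Fancf, was at 32.5, 24.6 and 22.7 against 39.2, 54.7 and 46 (log2FC 0.81, SE 0.30, adjusted p = 0.04) and did not pass without the block (adjusted p = 0.052), with library size alone, with no filter on low counts, in a fit of the 6 samples or without unstimulated replicates 2 or 3 or LPS-primed replicates 2 or 3.

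The strand setting of the counting is not given in the sources used here, so reads of a gene and of a gene that overlaps it on the other strand cannot be told apart. Among the genes named, such an overlap was found for Gpr34 (Cask), Cd180 (Mast4), Irak3 (Tmbim4), Dusp1 (Ergic1), Nlrc3 (Cluap1), Nfkb2 (Psd), Junb (Prdx2), Irf7 (Phrf1), Irf5 (Tnpo3), Ifit1 (Ifit1bl2), B2m (Patl2), Ciita (Dexi), H2-Aa (H2-Eb1), Cd274 (Plgrkt), Pilra (Zcwpw1), Arg2 (Vti1b), Slc16a3 (Ccdc57), Gapdh (Iffo1), G6pdx (Ikbkg), Mdh1 (Wdpcp), Idh3g (Srpk3), Fh1 (Kmo), Cs (Coq10a), Scap (Ptpn23), Nr1h3 (Acp2), Cyp27a1 (Prkag3), Ncoa4 (Timm23), Cybb (Xk), Sod1 (Scaf4), Prdx5 (Trmt112), Gas6 (Tmem255b), Xkr8 (Eya3), Cfb (Nelfe), C1s1 (C1rb), Timp1 (Syn1), Csf1r (Hmgxb3), Hspa5 (Rabepk), Fanci (Polg) and Fancf (Gas2). An overlap on the same strand was found for Slpi (Matn4), Gbp9 (Gbp4 and Gbp8), Lpcat2 (Capns2), Serpinb2 (Serpinb10) and Timp2 (Cep295nl). Idh3g also overlaps Ssr4 on the other strand, and other genes listed may have further overlaps that are not named.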

How the data were processed

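RNA-Seq read pairs were counted per gene in 18 BMDM samples, 3 in each of 6 groups, and 6 samples are compared here. The authors prepared stranded mRNA libraries (TruSeq), aligned the reads with HISAT2 to GRCm39 and counted them with HTSeq, according to the study's methods and the submitters' processing notes. The deposited values are raw counts per gene symbol, without normalization. HISAT2 and HTSeq versions, annotation and strand setting are not given in the sources used here. Lines that name no gene were removed, and reads assigned to no feature were 28.7 to 31.9% of the reads of the 6 libraries. Mitochondrially encoded transcripts, which can reflect RNA quality, were not analysed here.

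Counts on genes were 8172462 to 9826283 in these libraries and 6869667 to 14708099 over all 18. Genes were tested with edgeR 4.0.16 in R 4.3.3 (quasi-likelihood F test, TMM normalization, filterByExpr with a minimum count of 10 and a minimum total of 15) fitted to the 18 samples together, with a term for the group and the replicate number as a block. The Benjamini-Hochberg method over all 11305 tested genes gave adjusted p-values. Dividing the absolute log2FC by the root of F gave its SE. Normalized counts were scaled to the mean of the TMM-adjusted library sizes. The DEG limits are those of the study's methods, which used DESeq2. The script was tested on simulated counts. Once group means were subtracted, an LPS-primed and an unstimulated sample with the same number correlated across genes at 0.44, 0.31 and 0.47. Those with different numbers correlated at -0.37 to -0.03. Deviations within a group sum to 0, so positive same-number values lower the others, which are no separate evidence. The numbers were taken to pair the samples. Since nothing ties a number to an animal, p-values measure the spread between these samples. No 2 libraries held identical values.

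The comparison, gene groups and marker lists were chosen with earlier results of these data known. Named genes were 64 anchors, up to 2 members of each group in each direction with the smallest p among those that passed in the same direction in 3 pairs, and the 10 DEGs in each direction with the largest absolute log2FC among those with a mean of at least 100 normalized counts in the higher group that changed alike in 3 pairs. Chosen after their values were seen were Lyz2, Adgre1, Cd68, Spi1, Dcn, Pdgfrb, Blnk, Csf3, Il33, Tnfsf9, Hp, Wfdc17, S100a8, Tlr7, Tlr9, Dusp1, Socs1, Ifit3, Ifit2, Isg15, Cd40, Ass1, Slc7a2, Slc7a11, Arg2, Pfkfb3, Pgk1, Eno1, Slc16a3, Gapdh, Pgd, G6pdx, Fh1, Atp5b, Cs, Apoe, Fasn, Ptgs1, Alox5, Ltb4r1, Slc11a1, Ftl1, Gsr, Clec4n, Msr1, Gas6, Itgb3, Cfp, Cd55, Fcgr4, Itgam, Serpinb2, Timp1, Mmp8, Adora2a, Nt5e, Bcl2a1a, Fas, Mlkl, Hspa5, Hyou1, Pcna and Brca1. A few further members are named without values, and some members are not reported here. Positions and overlaps were taken from GENCODE vM39 (GRCm39), which placed 11002 (97.3%) of the tested genes. Promoters are the 250 bases before the start of the canonical transcript of a protein-coding gene in the same annotation. Tables were made with pandas 2.3.3 in Python 3.11.15, exact intervals with scipy 1.17.1 and figures with matplotlib 3.10.9.

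Alternatives were a fit without the replicate block, RLE size factors or library size alone, no filter on low counts, at least 10 counts in all 6 samples, DESeq2 1.42.0, limma-voom (limma 3.58.1), a fit of the 6 samples, a prior count of 2, a log2FC limit of 1, and leaving out each of the 6 samples in turn.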

Additional observations from a re-analysis of the deposited data

How the results depend on the processing

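The counts of DEGs, 406 higher and 481 lower, moved by over 1.5 times with at least 10 counts in all 6 samples (206 and 236), which tests fewer genes, and with a log2FC limit of 1 (872 and 1105). Leaving out each sample in turn gave 395 to 447 higher and 437 to 524 lower DEGs, and 1752 to 2003 genes that rose and 1731 to 2008 that fell. Without the replicate block 1370 genes rose and 1477 fell, with 385 and 460 DEGs, of which 835 were DEGs in both fits. With library size alone 1321 rose and 3709 fell, and the median log2FC over all genes moved by the same scaling. For the other alternatives and these counts, no value moved by over 1.5 times. Beside the counts of group members given above, with at least 10 counts in all 6 samples none of 23 negative regulators, 1 of 27 NF-kB, AP-1, STAT and IRF factors and 1 of 13 class II genes fell, and 1 of 17 genes of the uptake of dead cells, 1 of 10 growth factors and 2 of 9 purinergic genes rose. With limma-voom 2 interferon-inducible GTPases fell. In a fit of the 6 samples 1 interferon-stimulated and 1 unfolded protein or ATF4 gene fell and 1 growth factor rose.

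Genes that changed direction had not passed the test. With library size alone, the log2FC was -0.11 for C1qa, -0.20 for Cd74, -0.15 for Csf1r, -0.070 for Ctsk, -0.055 for G6pdx, -0.11 for Spi1 and -0.10 for Tlr4. With limma-voom it was 0.22 for Il12b, which has no read in the compared samples. Leaving out each sample in turn, the log2FC ran from -0.032 to 0.48 for C1qa, -0.25 to 0.24 for Cd74, -0.0053 to 0.22 for Csf1r, -0.055 to 0.81 for Gbp2, -1.09 to 0.40 for Ifit1, -0.57 to 0.54 for Il12b and -0.29 to 0.093 for Irf1. Under the block the calls of the named genes were the same as without it, except for those given beside their values. The causes were not tested. At this depth, members with a few reads per library, such as Irf4 and Ciita after priming, are limited by counting error.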
